A study of Mus musculus with 6 samples.

Results

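The 39 genes described here encode the vacuolar ATPase, the cathepsins and a few proteins of the lysosome membrane. They were taken by symbol from a table of 17385 genes: all rows named Atp6v0 or Atp6v1 with any ending, Atp6ap1 and Atp6ap2, cathepsins written as Cts and 1 letter, Lamp genes with a number, and Scarb2, Npc1, Npc2, Tfeb and Mcoln1. The rule uses symbols only, and it was written with earlier results of these data known. By role they are 10 subunits of the V1 domain, 8 of the V0 domain, 2 accessory proteins, 11 cathepsins and 8 membrane, cholesterol export and regulatory genes. GENCODE M21 annotates 13 further protein-coding genes under these names, among them Atp6v1b1, Atp6v1g3, Atp6v0d2, Ctse, Ctsw and Lamp3, which have no row in the table and were not analysed here.

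The 6 samples hold hippocampal messenger RNA of C57BL/6 mice aged 2 months. The 3 control samples are labelled Control (Emx-Cre) and have the genotype EMX1-Cre, a Cre recombinase expressed from a gene of the developing forebrain. The 3 sATF6-KI samples carry Rosa26-sATF6-MER beside the same Cre, so Cre itself is shared by both groups. The knock-in encodes short-form ATF6 joined to MER, a part of the estrogen receptor that usually makes a fused protein depend on a ligand. No source used here states whether such a ligand was given. The title asks how the short form of ATF6 in neurons affects gene expression in the brain. Emx1-Cre is known to act in excitatory neurons and in some glia of the forebrain, so a whole hippocampus also holds cells that lack the active allele. In such tissue fewer cells of a type and less RNA per cell cannot be told apart. Each p-value sets the difference between the groups against variation estimated from these samples. Nothing in the labels says how the samples of a group relate, so whether that is variation between independent animals is unknown here.

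The lysosome is the acidic compartment where cells digest proteins, lipids and sugars. The vacuolar ATPase acidifies it: the V1 domain on the cytosolic side splits ATP, and the V0 domain in the membrane carries protons inward. In neurons the same pump also acidifies synaptic vesicles, and the proton gradient drives transmitter loading. Cathepsins are proteases that work at low pH, and many genes of this system carry promoter sites for the transcription factor TFEB. ATF6 is best known for raising chaperone and quality control genes of the endoplasmic reticulum (ER), where lysosomal proteins are folded before they are sorted.

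All fold changes, statistics and p-values below compare sATF6-KI with control and come from the authors' deposited table, made with DESeq2. Each log2 fold change is given ± its Wald standard error, and intervals are 95% Wald intervals. The columns of values per library match no sample label and were not used, so the depth per sample is unknown here. The mean normalized signal of a gene over all libraries (baseMean) had a median of 622 across the table and ran from 2.12 to 295141.

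None of the 39 genes passed the authors' adjusted p under 0.05 in the DESeq2 test of the deposited table, against 5.34% of all genes. At an unadjusted p under 0.05, 8 were lower in sATF6-KI and none higher in the authors' deposited table, whereas 7.59% of all genes were lower and 8.2% higher by that rule. All 8 were subunits of the vacuolar ATPase, 7 of V1 and 1 of V0, and their adjusted p ran from 0.0721 to 0.262. Among the other 21 members, outside V1 and V0, no value had an unadjusted p under 0.05 in either direction, and 9 lay below 0 and 12 above. For comparison, Hspa5, the ER chaperone BiP, had risen 5.41-fold in the authors' deposited table with an adjusted p of 4.55e-167, and Hsp90b1, the ER form of HSP90, was 4.81-fold higher.

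The precision was enough to limit the size of what could have been missed in RNA of the whole hippocampus. A change within only the cells that carry the active allele is not bounded by these intervals. For 36 of the 39 genes the 95% Wald interval from the authors' deposited table lay wholly inside a 1.5-fold change in either direction, with bounds between -0.37 and 0.32 on the log2 scale. The 3 exceptions were Atp6v1c2, Atp6v0a4 and Ctsk, which had a mean signal under 100. A gene passed the adjusted threshold in this table when its Wald statistic exceeded 3.00 in size, which for the median member meant a log2 change of 0.22.

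**Figure D1:**
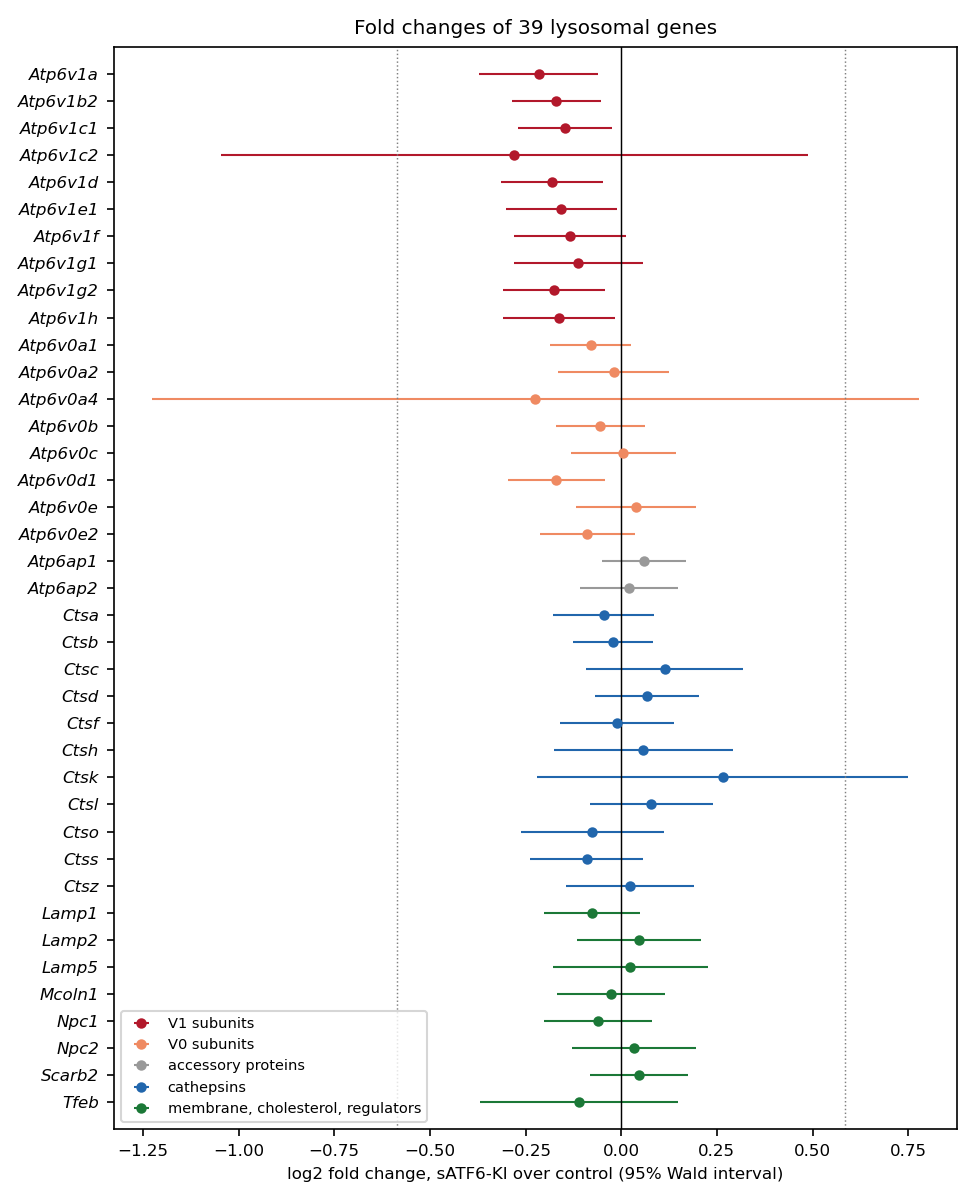
Log2 fold change of each of the 39 genes, sATF6-KI over control, with its 95% Wald interval, grouped by role. Dotted lines mark a 1.5-fold change. All 10 V1 points lie left of 0, and 8 intervals exclude 0, those of 7 V1 genes and Atp6v0d1.

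The V1 domain gave the most uniform picture. All 10 measured V1 genes had a log2 fold change below 0 in the authors' deposited table, from -0.28 to -0.11 with a median of -0.17, whereas 48.7% of all genes lay below 0 and their median was 0.00. None of the 10 was called by the authors' DESeq2 test, against 1.93% of all genes called lower.

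Atp6v1a encodes the A subunit, which holds the catalytic site for ATP. Its log2 fold change was -0.22 ± 0.08 in the authors' deposited table (95% interval -0.37 to -0.06, adjusted p = 0.0937). Atp6v1b2, the B subunit that alternates with A in the ATP-splitting head, was at -0.17 ± 0.06 in the authors' deposited table and had the smallest adjusted p of all members, 0.0721. In linear terms Atp6v1a was 1.16-fold and Atp6v1b2 1.12-fold lower in the authors' deposited table. Atp6v1a lies on chromosome 16 and Atp6v1b2 on chromosome 8 (GENCODE M21, GRCm38).

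The stalk subunits had similar values. Atp6v1d, part of the central rotor, was at -0.18 ± 0.07 in the authors' deposited table (adjusted p = 0.103), and Atp6v1f, its rotor partner, was at -0.13 ± 0.07 with an unadjusted p of 0.0741. Of the peripheral stalks, which hold the head in place, Atp6v1e1 was at -0.16 ± 0.07 and Atp6v1g2 at -0.18 ± 0.07 in the authors' deposited table. The intervals of Atp6v1d, Atp6v1e1 and Atp6v1g2 lay below 0 and that of Atp6v1f reached 0.01. Atp6v1c1, the subunit that joins stalk and membrane domain and leaves the pump when it comes apart, was at -0.15 ± 0.06 in the authors' deposited table. Atp6v1h, which regulates coupling between the domains, was at -0.16 ± 0.07. Exons of Atp6v1g2, Atp6v1h and Atp6v1e1 share bases with genes on the opposite strand in GENCODE M21, and no source used here states the strand setting of the counting.

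The V0 domain was less uniform. Of 8 measured genes 6 lay below 0 and 2 above in the authors' deposited table, with a median log2 fold change of -0.07. At an unadjusted p under 0.05, 1 gene was lower and none higher, against 7.59% and 8.2% of all genes. That gene, Atp6v0d1, encodes the subunit that couples the V1 rotor to the membrane ring, and was at -0.17 ± 0.06 in the authors' deposited table (95% interval -0.30 to -0.04, adjusted p = 0.109). The ring itself, through which protons pass, had Atp6v0b at -0.05 ± 0.06 and Atp6v0c at 0.01 ± 0.07 in the authors' deposited table. The intervals of both ring genes include 0. Reads of Atp6v0c are uncertain because GENCODE M21 lists 2 processed pseudogenes of it. Atp6v0b shares 11.8% of its exonic bases with Gm12841 on the opposite strand. Atp6v0a1, the membrane subunit that forms the path of protons to and from the ring, was at -0.08 ± 0.05 and Atp6v0e2 at -0.09 ± 0.06 in the authors' deposited table.

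Where several isoforms of a subunit were measured, 1 gene held most of the signal. Levels are given here as mean normalized signal per kb of exon over all 6 libraries, from the authors' baseMean and exon lengths of GENCODE M21, so they describe both groups together and carry no spread. Atp6v1g2, the G isoform enriched in neurons, had a level of 6061 and made up 87.2% of the G signal, with Atp6v1g1 at 893. Atp6v0e2 held 94.9% of the e subunit signal and Atp6v0e the rest. Atp6v0a1 held 91.1% of the a subunit signal when Tcirg1, an a isoform outside the symbols used here, was counted as well; Atp6v0a2 held 6.46%, Tcirg1 2.40% and Atp6v0a4, the isoform known from kidney, 0.0868%. Atp6v1c1 exceeded Atp6v1c2 with 99.1% of the C signal.

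Both G isoforms lay below 0, at -0.18 ± 0.07 for Atp6v1g2 and -0.11 ± 0.09 for Atp6v1g1 in the authors' deposited table, and their intervals overlapped. Atp6v0a2 was at -0.02 ± 0.07 and Tcirg1 at -0.13 ± 0.11 in the authors' deposited table, each with an interval that includes 0 and overlaps that of Atp6v0a1. Atp6v0e was at 0.04 ± 0.08 in the authors' deposited table, with an interval that overlaps that of Atp6v0e2. The scarce isoforms could not be resolved: Atp6v1c2 was at -0.28 ± 0.39 and Atp6v0a4 at -0.22 ± 0.51 in the authors' deposited table.

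**Figure D2:**
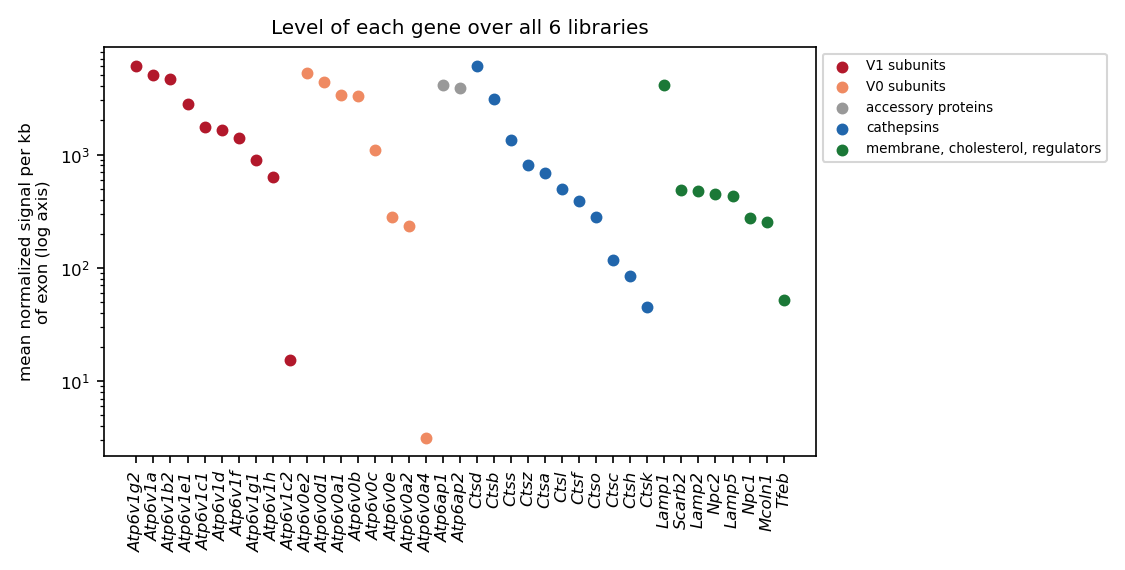
Mean normalized signal per kb of exon for each gene over all 6 libraries, on a log axis, in descending order within each role. The most abundant genes were Ctsd at 6085 and Atp6v1g2 at 6061, and the least abundant was Atp6v0a4 at 3.17.

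The accessory proteins did not share the sign of V1. Atp6ap1, which is needed to assemble V0 in the ER, was at 0.06 ± 0.06 in the authors' deposited table, and Atp6ap2, known also as the prorenin receptor, was at 0.02 ± 0.07. Both intervals include 0 and end at 0.17 and 0.15 on the log2 scale. Their levels per kb of exon were 4099 for Atp6ap1 and 3828 for Atp6ap2, in the range of the abundant V1 and V0 genes.

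Many abundant genes were lower in sATF6-KI, and this bears on how the V1 values are read. Across 20 bins of equal gene number, the median log2 fold change in the authors' deposited table went from 0.19 in the bin of lowest signal to -0.08 in the bin of highest signal. Of the 1739 genes with a baseMean of at least 5000, 72.2% lay below 0, 28.2% had an unadjusted p under 0.05 and were lower, and 13.6% were called by the authors' DESeq2 test, 9.72% as lower and 3.91% as higher. Of the 39 members 16 were that abundant, and 8 of the 16 lay below 0 with an unadjusted p under 0.05, none of them called. Among these 16, all 11 of V1 and V0 lay below 0 and 8 had an unadjusted p under 0.05, while 2 of the 5 others lay below 0 and none reached it. The 7 V1 genes in this range had a median of -0.17, against -0.07 for all genes in it. The part that the level had in the V1 values was not tested.

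**Figure D3:**
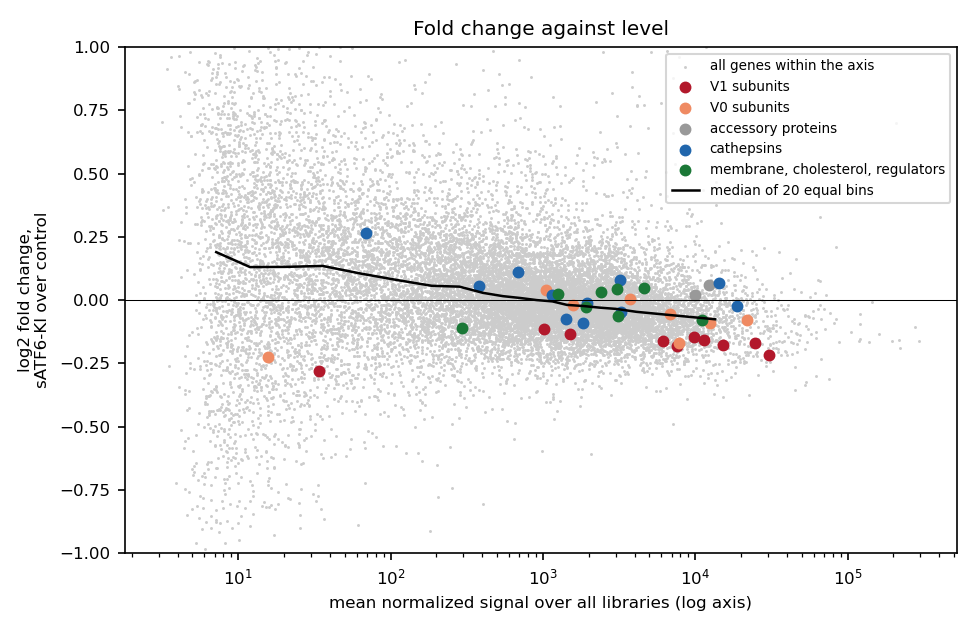
Log2 fold change, sATF6-KI over control, against mean normalized signal over all libraries (log axis), for all genes within 1 log2 unit of 0 (grey; 295 genes lie beyond the axis) and for the 39 genes by role. The black line, the median of 20 bins of equal gene number, falls from 0.19 to -0.08, and all V1 points lie below it.

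Markers of the cell types that the tissue can hold had the following values in the same comparison. Of 10 glutamatergic neuron markers 9 lay below 0 in the authors' deposited table, from -0.24 to 0.07 with a median log2 fold change of -0.13. The only 1 called was Zbtb18, a transcriptional repressor, which fell by 0.24 ± 0.06. Slc17a7, the vesicular glutamate transporter, was at -0.17 ± 0.06 in the authors' deposited table, close to the value of Atp6v1b2. Of 10 oligodendrocyte markers 9 lay below 0, with a median of -0.15, and of 8 GABAergic markers 4 did, with a median of -0.01. Of 10 astrocyte markers 8 lay below 0 with a median of -0.11, and only Aldoc, a glycolytic enzyme, was called. It fell by 0.25 ± 0.08 in the authors' deposited table. Of 9 endothelial and mural markers 8 lay above 0 with a median of 0.11, and only Pdgfrb, a receptor of pericytes, was called. It rose by 0.25 ± 0.08 in the authors' deposited table. All 12 choroid plexus markers lay above 0 in the authors' deposited table, with a median of 0.47, and 11 were called higher. No oligodendrocyte or GABAergic marker was called. For comparison, 48.7% of all genes lay below 0, as did 72.2% of those with a baseMean of at least 5000. Of all genes 1.93% were called lower and 3.41% higher. The summed level of a marker list in each group is not given because the columns of values per library match no sample label and were not used. The part of these shifts in the V1 values was not tested.

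**Figure D4:**
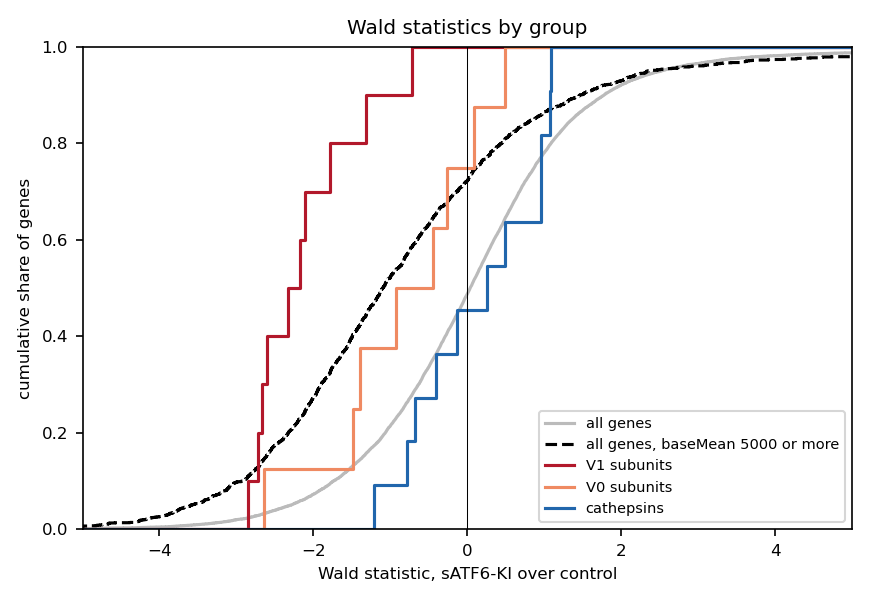
Cumulative share of genes by Wald statistic, sATF6-KI over control, for V1 subunits (10 genes), V0 subunits (8), cathepsins (11), all 17385 genes and the 1739 genes with a baseMean of at least 5000. All V1 statistics lie below 0, as do 48.7% of all genes, 72.2% of abundant genes and 5 of the 11 cathepsins.

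Promoter sequences were looked at because several V-ATPase values lay on the same side of 0. RefSeq windows (GRCm38.p6) from 250 bases before to 50 bases after a start were matched for 31 of the 39 genes, as 38 windows. Atp6v1b2, Atp6v1c1, Atp6v1g1, Atp6v1h, Atp6v0a2, Ctsb, Ctsh and Npc1 had no entry. The letters TCACGTG, the core of sites that TFEB is known to bind, were searched on both strands and occurred in the windows of 8 of the 31 genes, or 25.8%, against 6.48% of 11772 genes of the table with a window. The shorter CACGTG, which every TCACGTG contains, occurred in 10, or 32.3%, against 11.1%. Members were chosen as lysosomal genes, so this share describes them and is not a test. The stretches below show it for Atp6v1a and Atp6v0d1, whose intervals lie below 0, and for Atp6v0b, Lamp1 and Mcoln1, whose intervals include 0. They run 5′ to 3′ on the strand of the gene, with the matches to TCACGTG on either strand in capitals. Their positions are chr16:44139364-44139411 (minus strand) for Atp6v1a, chr8:105566055-105566088 (minus) for Atp6v0d1, chr4:117887322-117887386 (minus) for Atp6v0b, chr8:13159079-13159170 (plus) for Lamp1 and chr8:3500427-3500500 (plus) for Mcoln1.
Atp6v1a: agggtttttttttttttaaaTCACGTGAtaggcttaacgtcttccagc
Atp6v0d1: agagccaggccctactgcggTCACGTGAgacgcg
Atp6v0b: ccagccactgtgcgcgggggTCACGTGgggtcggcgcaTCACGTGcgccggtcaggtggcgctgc
Lamp1: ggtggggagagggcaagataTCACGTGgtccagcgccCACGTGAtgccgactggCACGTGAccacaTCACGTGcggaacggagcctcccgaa
Mcoln1: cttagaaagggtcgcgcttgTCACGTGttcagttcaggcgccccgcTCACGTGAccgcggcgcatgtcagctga

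The match occurred on both sides of the unadjusted threshold. Of the 5 genes with an unadjusted p under 0.05 that had a window, 2 held TCACGTG, and of the other 26 genes 6 did. By role, it occurred in 1 of 6 V1 genes with a window and in 3 of 7 V0 genes. It also occurred in 2 of 9 cathepsins, 2 of 7 membrane, cholesterol export and regulatory genes, and 0 of 2 accessory genes. Lamp1 has 4 separate sites in its window and was at -0.08 ± 0.06 in the authors' deposited table. Atp6v1a has 1 and was at -0.22 ± 0.08 in that table. Their intervals overlapped, at -0.20 to 0.05 for Lamp1 and -0.37 to -0.06 for Atp6v1a. A relation between these sites and the fold changes was not tested. The ER stress element, CCAAT followed 9 bases on by CCACG, and TGACGTG, another sequence ATF6 is known to bind, were searched on both strands too. Neither occurred in a window of the 31 genes. The element occurred in 0.17% of genes of the table and in 2 of 6 reference ER chaperone and quality control genes, and TGACGTG in 3.02% of genes of the table and 1 of those 6. CCACG alone, which ends the element and can overlap CACGTG, occurred in 48.4% of the 31 genes, 50.1% of genes of the table and 6 of the 6 reference genes.

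Cathepsins showed no common direction. Of 11 measured, 5 lay below 0 and 6 above in the authors' deposited table, with a median log2 fold change of 0.02. None was called by DESeq2 or had an unadjusted p under 0.05. Among all genes 5.34% were called, and 8.2% were higher and 7.59% lower at that unadjusted threshold. Ctsd, the main aspartic protease of the lysosome, was at 0.07 ± 0.07 in the authors' deposited table (95% interval -0.07 to 0.20). Its level of 6085 per kb of exon was the highest of all members, but 34.4% of its exonic bases are shared in GENCODE M21 with Gm49369 on the same strand, so its counting is uncertain. Ctsb, an abundant cysteine cathepsin, was at -0.02 ± 0.05 in the authors' deposited table, and Ctsl, which also processes other hydrolases, at 0.08 ± 0.08. In GENCODE M21 Ctsb shares 12.8% of its exonic bases with Fdft1 on the opposite strand. Ctsl shares 26.8% with Gm47123 on the opposite strand and 6.09% with Gm49230, a processed pseudogene, on the same strand. Ctsa, which protects other lysosomal enzymes, was at -0.05 ± 0.07 in the authors' deposited table. It shares 10.5% of its exonic bases with Pltp and 6.87% with Neurl2, both on the opposite strand.

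The cathepsins typical of immune cells and tissue macrophages had intervals that include 0. Ctss, known in brain as a microglial protease, was at -0.09 ± 0.07 in the authors' deposited table, and Ctsc, which activates serine proteases of immune cells, was at 0.11 ± 0.10. Of 14 microglia markers 12 lay below 0 in the authors' deposited table, against 48.7% of all genes, with a median log2 fold change of -0.07. P2ry12, a receptor of resting microglia, fell by 0.30 ± 0.08 and was the only 1 of the 14 called. None of the other markers in that list had an unadjusted p under 0.05 in either direction. Of all genes 1.93% were called lower and 3.41% higher, and at the unadjusted threshold 7.59% were lower and 8.2% higher. Ctsz was at 0.02 ± 0.09, Ctsh at 0.06 ± 0.12, Ctsf at -0.01 ± 0.08 and Ctso at -0.08 ± 0.10 in the authors' deposited table. Apart from the scarce Ctsk, at 0.27 ± 0.25, all cathepsin intervals from the authors' deposited table lay between -0.26 and 0.32 (log2).

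The remaining 8 genes were evenly split, with 4 below 0 and 4 above in the authors' deposited table. None was called by DESeq2, against 5.34% of all genes. None had an unadjusted p under 0.05, against 8.2% of all genes higher and 7.59% lower. Lamp1, the abundant glycoprotein that lines the lysosome membrane, had a level of 4129 per kb of exon, and its relative Lamp2 a level of 480. Lamp1 shares 9.31% of its exonic bases with Grtp1 on the opposite strand in GENCODE M21. In the authors' deposited table Lamp2 was at 0.05 ± 0.08, with an interval that overlaps that of Lamp1, and Lamp5, a family member found in subsets of neurons, at 0.02 ± 0.10. Scarb2, which carries glucocerebrosidase from the ER to the lysosome, was at 0.05 ± 0.07 in the authors' deposited table.

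Cholesterol leaves the lysosome through Npc2, which takes it up in the lumen, and Npc1, which passes it through the membrane. Npc2 was at 0.03 ± 0.08 and Npc1 at -0.06 ± 0.07 in the authors' deposited table. Mcoln1, the calcium channel TRPML1, was at -0.03 ± 0.07 in the authors' deposited table. Tfeb itself was at -0.11 ± 0.13 in the authors' deposited table, with an interval from -0.37 to 0.15, and had a low level of 52.0 per kb of exon.

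Other genes of the lysosome, in lists of 105 genes of which 100 had a row, held few calls. In all, 3 rose and none fell at the authors' adjusted p under 0.05, or 3.00% called higher, against 3.41% higher and 1.93% lower among all genes. Of 35 lysosomal hydrolases and activators 2 rose and none fell, and their log2 fold changes had a median of 0.03. Lipa, the acid lipase that frees cholesterol and fatty acids, rose 1.48-fold in the authors' deposited table (log2 0.56 ± 0.08, adjusted p = 3.77e-10). Idua, which degrades glycosaminoglycans, rose 1.31-fold in the authors' deposited table with an adjusted p of 0.0291, and shares exonic bases with Slc26a1 and Dgkq on the opposite strand.

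Of 13 measured genes for V-ATPase assembly and regulation 1 rose and none fell, 9 lay below 0, and the median was -0.06. At an unadjusted p under 0.05, 3 lay above 0 and 1 below, against 8.2% and 7.59% of all genes. Dmxl1, a rabconnectin that helps to assemble V1 onto V0, rose 1.40-fold in the authors' deposited table (log2 0.49 ± 0.07, adjusted p = 3.01e-09). Tldc1, of the TLDc family that interacts with the pump, was at 0.26 ± 0.11 in the authors' deposited table (adjusted p = 0.179).

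In the other 4 lists no gene was called by the authors' DESeq2 test, against 5.34% of all genes. Among 15 measured MiT/TFE factors and GTPase regulators of nutrient sensing at the lysosome, 1 above 0 and 3 below it had an unadjusted p under 0.05 (8.2% and 7.59% of all genes, which also apply to the lists that follow), with Lamtor4 at -0.21 ± 0.08 and Rragd at -0.19 ± 0.08 in the authors' deposited table. Of 22 other membrane and channel genes 1 was higher and none lower at that threshold, namely Laptm4a at 0.13 ± 0.06 in the authors' deposited table. Of 12 genes listed for sorting to the lysosome, by mannose 6-phosphate or otherwise, none was higher and 1 lower, Sort1 at -0.11 ± 0.05. Among 3 cystatins, inhibitors of cysteine cathepsins, none had an unadjusted p under 0.05, and Cst3 was at -0.28 ± 0.19 in the authors' deposited table.

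**Figure D5:**
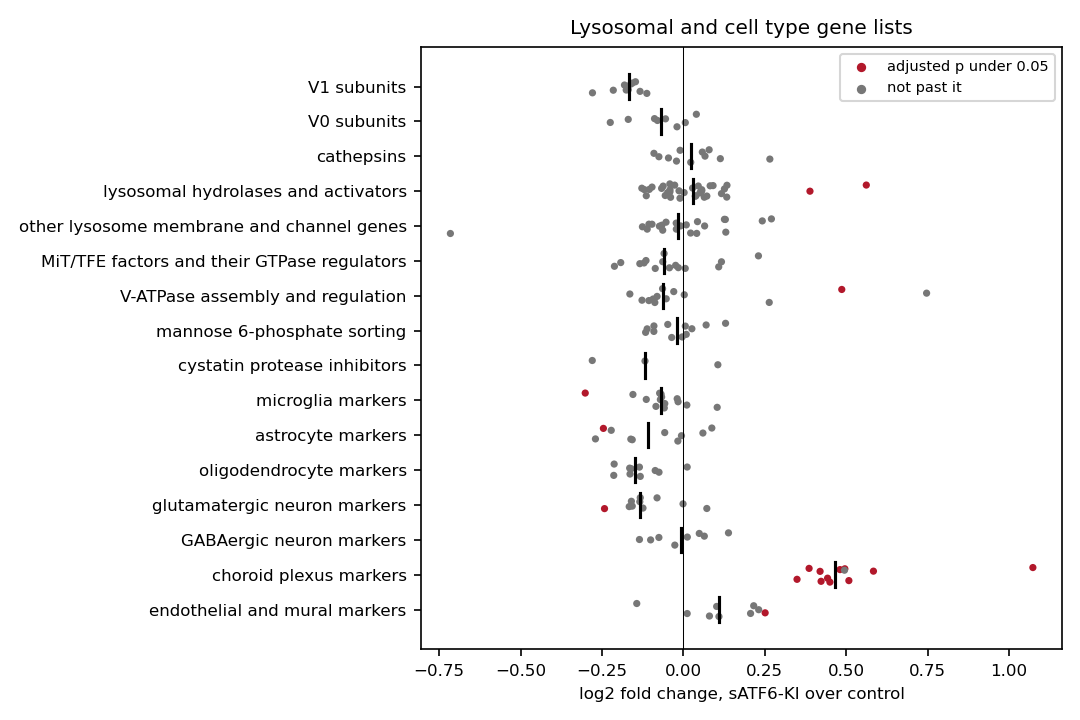
Log2 fold change, sATF6-KI over control, of each gene in the V1, V0 and cathepsin groups, in 6 lists of other lysosomal genes and in 7 lists of cell type markers. Black bars are medians and red points have an adjusted p under 0.05; no V1, V0 or cathepsin point is red, and the choroid plexus median lies at 0.47.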

How the data were processed

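Per the labels' protocols, RNA came from frozen hippocampus by Trizol extraction and DNase treatment, and a stranded KAPA messenger RNA kit was used. The submitters' processing notes name Trim Galore, cutadapt, STAR, HTSeq and DESeq2; no source used here gives versions, genome build, annotation or strand setting. Per the file headers, the deposited table holds a log2 fold change, its error, a Wald statistic (a score), a p-value and an adjusted p-value; the authors' baseMean is a mean normalized signal over all libraries. A further 6 columns of values per library have names that match no sample label and were not used. An edgeR fit was planned only if such columns could be given to labelled samples, so the authors' DESeq2 test remained the main test.

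The deposited p-value followed from the Wald statistic within 2.89e-15, and the adjusted p from a Benjamini-Hochberg adjustment within 3.89e-15. The deposited error did not: the Wald error, the fold change over the statistic, was 1.21 times larger in the median and is the one used. The adjustment was checked on simulated data. The error was recovered there too, but its definition fixed that outcome, so the Wald error was not checked by it. Levels per kb use the union of exons in GENCODE M21, which held all 39 IDs. In it 14 members share exonic bases with another gene, 3 of them on the same strand, and not all of these are named above. Alternatives are other thresholds, adjustments, filters and a centring of fold changes. All members may be named; other genes only where called or among the 2 of their list with the largest Wald statistic, and Hspa5 and Hsp90b1 as called reference genes. Members and lists were chosen with earlier results of these data known. Software was scipy 1.17.1, numpy 2.4.6 and pandas 2.3.3 under Python 3.11.15, with matplotlib 3.10.9 for plots.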

Additional observations from a re-analysis of the deposited data

How the results depend on the processing

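No member was called higher under any of the 8 alternatives run. Called lower, members went from 0 to 2 at an adjusted p threshold of 0.1 (Atp6v1b2 and Atp6v1a) and to 1 among genes with a baseMean of at least 1000 adjusted again, an alternative chosen after seeing the data (Atp6v1b2, adjusted p = 0.0466). The other 6 gave 0. The 8 members lower at an unadjusted p under 0.05 stayed 8 under each filter and under centring on the median gene, and became 0 when a fold change of at least 1.2 was required as well. Over all genes, the 592 called higher were 379 at a threshold of 0.01 and 234 by Bonferroni. The 336 called lower were 135 at 0.01, 529 at 0.1, 34 by Bonferroni and 133 with a fold change of at least 1.2. Among the 7056 genes with a baseMean of at least 1000, adjusting again gave 323 called higher and 383 lower. The deposited adjustment gave 285 and 298 among the same genes. Calls in the other lysosomal lists stayed within 1.5 times. With the deposited error in place of the Wald error, 11 intervals lay below 0 and 1 above, adding Atp6v1f and the scarce Atp6v1c2, Atp6v0a4 and Ctsk. No paired analysis was possible because the names of the columns per library match no labelled sample, and for the same reason fits without single replicates, other normalizations and count filters were not run.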
